A study of Rattus norvegicus with 4 samples.

Results

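The inhibin, activin and anti-Müllerian hormone (AMH) system was described here through 9 genes, chosen by name: the hormone subunit genes Inha, Inhba and Inhbb, the hormone gene Amh, the activin-binding protein gene Fst, and the receptor and coreceptor genes Acvr1b, Acvr2a, Acvr2b and Tgfbr3. Every probe set whose only gene symbol in the platform annotation was 1 of these names was taken. This gave 11 probe sets for 8 of the 9 genes, out of 31099 probe sets and 14218 named genes on the array. Acvr1b, a type I activin receptor, had no probe set under these names and was not analysed here.

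The cells were Sertoli cells, the somatic cells that line the seminiferous tubule and support the germ cells, taken from 20-day-old male Sprague-Dawley rats and kept in serum-free culture for 72 h. A control group of 2 samples received no treatment, and a group of 2 samples received cAMP, the second messenger that follicle-stimulating hormone (FSH) raises in these cells. Neither the chemical form of cAMP nor its dose is stated in the labels. The samples are called biological replicates in the labels, but it is not stated whether each came from its own cell preparation. The p-values therefore reflect only how far these samples spread, which may be technical.

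Inhibins and activins are built from shared parts. An alpha subunit (Inha) joined to a beta subunit (Inhba or Inhbb) makes inhibin, whereas a pair of beta subunits makes activin. Activin binds a type II receptor (Acvr2a or Acvr2b), which recruits the type I receptor Acvr1b and signals through SMAD proteins. Follistatin (Fst) traps activin, and inhibin blocks it by holding the type II receptor together with the coreceptor betaglycan (Tgfbr3). In the testis Sertoli cells are the main source of inhibin B, which restrains FSH release from the pituitary, and AMH is the Sertoli product that removes the Müllerian ducts of the male fetus and declines before puberty.

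The promoters of the members are shown first because cAMP acts on many genes through the cAMP response element (CRE), and the rat Inha promoter is known for a variant of it. A promoter of 300 bases (250 before and 50 after the transcription start) was present in the RefSeq table of assembly GRCr8 for 8 of the 9 members, all but Fst. The 3 printed below belong to the member with the largest increase, the member with the largest decrease, and Amh. Capitals mark matches on either strand to the motifs searched: the CRE TGACGTCA, the variant CRE TGCGTCA, the CRE core TGACG, the GATA motifs AGATAA or AGATAG and TGATAA or TGATAG, the NR5A motifs CAAGGTCA and CAAGGCCA, and the SOX motif AACAAT. The core lies within the full CRE, and its reverse complement lies within the variant.
Inha, chr9:84442859-84443158, plus strand: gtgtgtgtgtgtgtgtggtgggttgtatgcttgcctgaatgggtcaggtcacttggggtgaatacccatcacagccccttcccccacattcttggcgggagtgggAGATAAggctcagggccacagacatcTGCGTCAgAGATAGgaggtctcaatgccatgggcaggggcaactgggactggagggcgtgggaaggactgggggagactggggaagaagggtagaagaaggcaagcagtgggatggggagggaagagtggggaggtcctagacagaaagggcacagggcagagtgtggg
Inhba, chr17:53804459-53804758, minus strand: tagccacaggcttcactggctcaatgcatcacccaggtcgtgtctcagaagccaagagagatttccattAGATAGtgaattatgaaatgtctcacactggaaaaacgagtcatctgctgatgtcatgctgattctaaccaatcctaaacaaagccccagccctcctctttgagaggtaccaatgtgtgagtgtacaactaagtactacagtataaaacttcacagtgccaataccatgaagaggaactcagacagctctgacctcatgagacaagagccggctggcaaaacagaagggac
Amh, chr7:9559818-9560117, minus strand: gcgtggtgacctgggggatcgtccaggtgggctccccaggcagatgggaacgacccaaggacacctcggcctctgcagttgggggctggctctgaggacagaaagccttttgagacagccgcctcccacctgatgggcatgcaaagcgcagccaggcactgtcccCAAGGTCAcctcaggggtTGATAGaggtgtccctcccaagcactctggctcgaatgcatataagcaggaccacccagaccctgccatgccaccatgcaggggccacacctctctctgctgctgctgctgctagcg

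The Inha window held the variant CRE 119 to 113 bases before the start, with GATA matches on both sides of it, AGATAA upstream and AGATAG downstream. The variant CRE was present in 1.90% of the 33469 promoters of the table and in 1 of the 8 member promoters, that of Inha. This variant was searched because it is known from Inha, so its presence there was known beforehand and is not a result. The full CRE was present in 1.83% of all promoters and in none of the 8. The core was found in 21.2% of all promoters and in 2 of the 8, Inha (within the variant) and Acvr2a. The Amh window held an NR5A match, a motif bound by the nuclear receptor SF-1 (Nr5a1) and present in 3.68% of all promoters, 85 to 78 bases before the start, followed by a GATA match. The Inhba window held a GATA match alone. GATA matches were present in 30.3% of all promoters and in 3 of the 8, and the SOX motif in 11.7% and in 1, Acvr2a. These matches describe the letters in the windows and are not measured binding sites.

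Gene expression was measured on one-colour Affymetrix arrays, and all values are probe set signals that the submitters had scaled to a common trimmed mean. Median signals lay between 31.3 and 33.7 over the 4 arrays. Background was set at 14.2, the brightest value among 27 Bacillus control probe sets. Differences are cAMP minus control on the scale log2(signal + 16), with their standard error, and were tested with limma. A gene rose or fell if its p-value, adjusted over all tested probe sets by the Benjamini-Hochberg method, lay below 0.05. Markers of the labelled cell type were present: 11 of the 12 Sertoli markers on the array were above background on every array, with Clu between 6071.5 and 7277.8 and Wt1 between 1452.2 and 1861.8. Of the 11 Sertoli markers tested, of which Inha and Amh are members described here, 4 were higher, 2 lower and 5 did not pass, 54.5% called against 15.4% of all named genes tested. Beside Inha the higher ones were Shbg (0.69 ± 0.18), Dhh (0.74 ± 0.14) and Kitlg (0.58 ± 0.14), and the lower ones were Aard (-0.51 ± 0.13) and Gata4 (-0.94 ± 0.12). Leaving out either cAMP array ended the calls of these 5, with adjusted p from 0.0601 to 0.339 when it was replicate 1 and from 0.0555 to 0.383 when it was replicate 2 (limma). Leaving out control replicate 2 ended those of Shbg (0.056) and Aard (0.0503), which with Kitlg were also lost with no filter or no intensity trend. Shbg and Aard also lost their calls with quantile normalization (adjusted p = 0.0551 and 0.0622, limma), so each lost its call in 6 of 12 alternatives. The part of the Sertoli markers in the Inha result was not tested. The Sertoli markers Sox9 and Fshr, the FSH receptor gene, had no probe set under these names.

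Of the 8 member genes measured, 1 rose (Inha), 1 fell (Inhba) and 6 did not pass. The background is 15.4% of the 10035 named genes tested, 8.27% higher and 7.14% lower, against 25% of these 8, and with so few genes nothing is read from the difference in share. Counted as probe sets, 7.29% of 18625 were called higher and 6.39% lower, 13.7% together. The median log2 difference of the 8 genes was -0.03, equal to that of all named genes tested, and the median size of the difference was 0.32 against 0.26. The values are therefore given gene by gene. Of the 11 probe sets, 10 passed the filter on dim signals. The exception was the second probe set of Inhba, and the probe sets of Inha and Inhba that were called exceeded the filter in either group alone. Inhba did so only narrowly with cAMP, at a mean of 5.19 against the filter of 5.10. The second probe set of Tgfbr3 passed the filter only through the controls, with means of 5.18 without and 5.06 with cAMP.

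**Figure D1:**
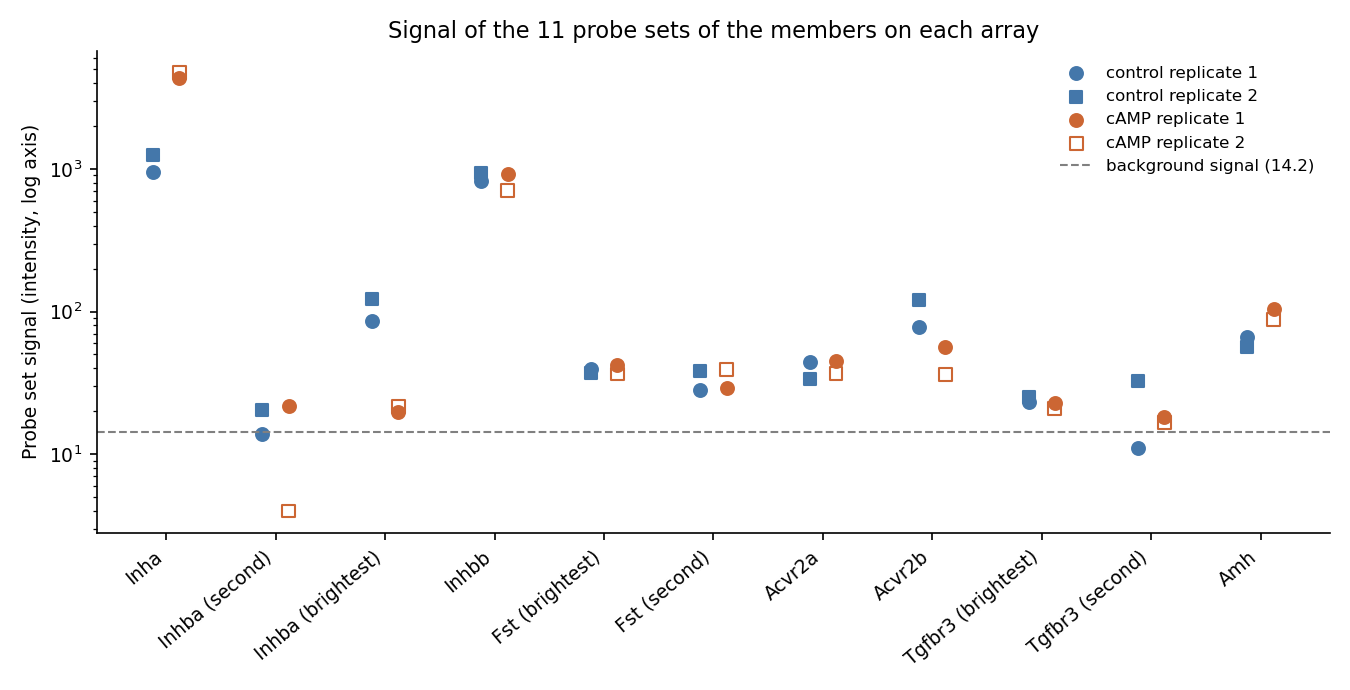
Signal (log axis) of each of the 11 member probe sets on the 2 control arrays (blue) and the 2 cAMP arrays (orange), with the background signal of 14.2 as a dashed line. Inha lies at 951.6 and 1242.8 on the controls, and 4344.6 and 4732.6 with cAMP, while the brightest probe set of Inhba goes from 85.9 and 121.6 to 19.6 and 21.6.

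Among the hormone genes, the inhibin alpha subunit gene Inha had the clearest increase. Its signal was 951.6 and 1242.8 on the controls, and 4344.6 and 4732.6 with cAMP. Both cAMP arrays lay far above both control arrays, and the arrays of a group differed by 30.6% (control) and 8.93% (cAMP). The mean went from 1097 ± 206 to 4539 ± 274 (SD, n = 2 arrays per group). The log2 difference was 2.04 ± 0.15 (adjusted p = 0.000293, limma) or 4.12-fold. Of the named genes tested, 127 had a larger increase. The gene kept its call with any 1 array left out, with a difference between 1.85 and 2.23.

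Inhba encodes the beta A subunit, which makes activin A with itself and inhibin A with the alpha subunit. Its brightest probe set gave 85.9 and 121.6 on the controls, and 19.6 and 21.6 with cAMP. The groups did not overlap, and both cAMP values lay just above background. The mean fell from 104 ± 25.2 to 20.6 ± 1.41, a log2 difference of -1.69 ± 0.22 (adjusted p = 0.00315, limma). This is 3.24-fold lower on the log2(signal + 16) scale, and the means themselves had a ratio of 5.04. Of the named genes tested, 102 had a larger decrease. The size depended on the pseudocount, from -2.26 with 1 to -0.98 with 64, and was -0.98 as the mean of both probe sets. The call held in these cases and with any 1 array left out. The second probe set of Inhba was near or below background, at 13.9 and 20.3 without and 21.9 and 4.0 with cAMP, so it was not tested and gives no second measurement of the decrease.

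Markers of peritubular myoid cells, contractile cells that surround the tubule, are given beside Inhba. Of the 8 markers on the list, 5 were tested, Tagln and Synpo2 fell, Des rose, and Acta2 and Myh11 did not pass, 60% called against 15.4% of all named genes tested. The calls of Synpo2 and Des were lost without cAMP replicate 1 (adjusted p = 0.282 and 0.0771, limma) and without cAMP replicate 2 (0.123 and 0.116), while Tagln kept its call. Synpo2 passed the filter only through the controls, and its call was lost in 5 of 10 alternatives, also with a pseudocount of 64 (adjusted p = 0.053), without the filter (0.122) and without the intensity trend (0.0512). The summed signal of the myoid markers was 628 and 470 on the controls, and 188 and 233 with cAMP. Most of that change lay in Tagln, which had 344.5 and 264.3 without and 1.3 and 7.4 with cAMP. With cAMP Tagln was at background, so it too passed the filter only through the controls. Its call held without the filter (adjusted p = 0.00182, limma). Acta2, the smooth muscle actin gene, had 109.6 and 60.6 without and 67.1 and 73.2 with cAMP. The part of these cells in the Inhba result was not tested. In bulk RNA, fewer cells of a type and less RNA per cell cannot be told apart.

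Inhbb encodes the beta B subunit of inhibin B and activin B. Its signal was 821.1 and 943.5 on the controls, and 928.2 and 710.6 with cAMP. The groups overlapped, and cAMP replicate 2 was the lowest of the 4. The log2 difference was -0.11 ± 0.17 (adjusted p = 0.701, limma), with a 95% interval from -0.50 to 0.27. An interval with these ends holds neither an increase of the size of Inha nor a decrease of the size of Inhba.

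Amh was measured by 1 probe set. Its signal was 66.8 and 56.4 on the controls, and 104.0 and 88.1 with cAMP. Both cAMP values lay above both control values. The log2 difference of 0.53 ± 0.19 did not pass after adjustment (adjusted p = 0.122, limma), and its 95% interval ran from 0.08 to 0.98. Over the alternatives the adjusted p lay between 0.0621 and 0.561, and the difference was positive in each.

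The subunits were also set against each other within each array, which restates the differences above as ratios. The log2 ratio of Inha to Inhba was 3.25 and 3.19 on the controls, and 6.94 and 6.98 with cAMP, a change of 3.74, or 13.3-fold. The size moved with the pseudocount, which weighs most on the dim Inhba signal: it was 19.9-fold with 1 and 7.87-fold with 64. That of Inha to Inhbb was 0.21 and 0.39 without and 2.21 and 2.71 with cAMP, a change of 2.16, or 4.46-fold. These are differences of log2(signal + 16) between different probe sets, so their change can be read but their level cannot. The ratio of Inha to Amh changed by 1.51, and the groups did not overlap in any of these 3 ratios. All 3 hold Inha, whose own groups did not overlap, and no share over other pairs of genes was computed. The absence of overlap in these ratios therefore carries little weight. No test was made on these ratios.

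**Figure D2:**
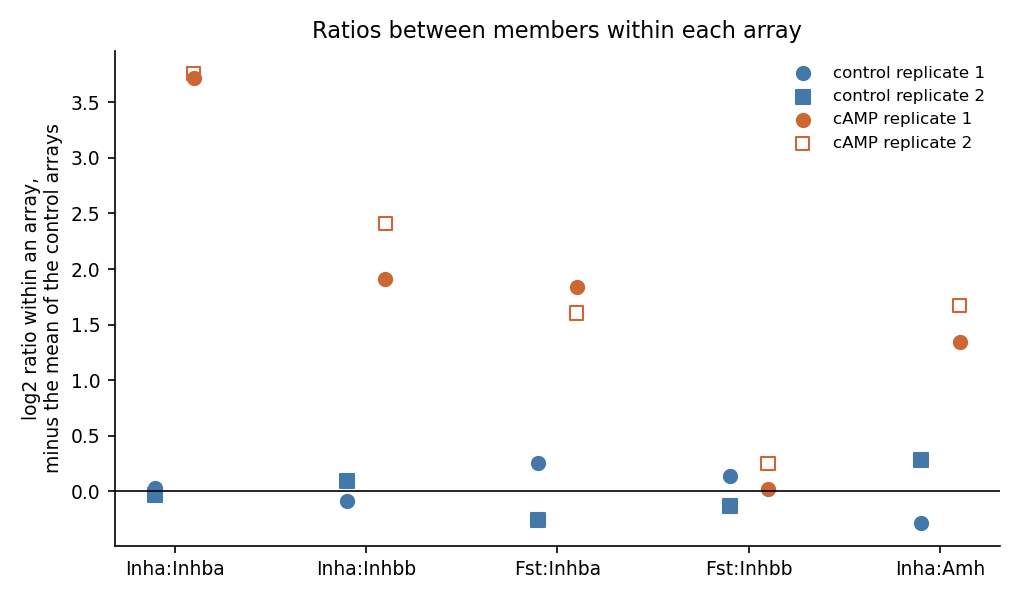
Log2 ratio between pairs of members within each array, set to the mean of the control arrays (blue, 2 arrays; orange, 2 cAMP arrays). The change is 3.74 for Inha to Inhba and 2.16 for Inha to Inhbb, while the arrays of both groups overlap for Fst to Inhbb, with a change of 0.14.

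Follistatin, the soluble antagonist of activin, was measured by 2 probe sets that gave the same picture. The brightest had 39.7 and 36.9 on the controls, and 42.1 and 36.5 with cAMP. The second had 28.0 and 38.5 without and 29.0 and 39.5 with cAMP. In both the groups overlapped, with log2 differences of 0.02 ± 0.20 and 0.03 ± 0.23 (adjusted p = 0.952 and 0.95, limma). The 95% interval of the brightest ran from -0.44 to 0.49. The log2 ratio of Fst to Inhba moved from -0.87 and -1.38 to 0.71 and 0.48, a change of 1.72.

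Among the receptors, the activin type II receptor genes differed in their estimates. Acvr2a had 44.1 and 33.6 on the controls, and 45.3 and 36.6 with cAMP, a log2 difference of 0.06 ± 0.21 (adjusted p = 0.895, limma; 95% interval -0.45 to 0.56). Acvr2b had 77.7 and 120.7 without and 56.6 and 36.4 with cAMP. The groups of Acvr2b did not overlap, but the arrays within each group differed by 55.3% and 55.5%. Its log2 difference was -0.88 ± 0.26 (95% interval -1.49 to -0.26), which did not pass (adjusted p = 0.0709, limma). It passed without control replicate 1, the lower of the control values, at -1.15 ± 0.26 (adjusted p = 0.0155), and when genes were tested as the mean of their probe sets (adjusted p = 0.0337). Acvr2b has 1 probe set, so the mean of probe sets left its difference at -0.88 and gives no second measurement. Over the other alternatives Acvr2b did not pass. Whether Acvr2a and Acvr2b differed from each other was not tested.

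Tgfbr3, the betaglycan gene, lay close to background. Its brightest probe set had 23.3 and 25.0 on the controls, and 22.8 and 20.9 with cAMP, a log2 difference of -0.09 ± 0.20 (adjusted p = 0.827, limma). The groups did not overlap, although the difference was small. The second probe set had 11.0 and 32.7 without and 18.2 and 16.7 with cAMP, with control replicate 1 below background (-0.12 ± 0.30, adjusted p = 0.84). A low signal leaves little room to see a decrease. Groups did not overlap in 5 of the 10 tested member probe sets, which compares with 58.2% of all probe sets tested, so the absence of overlap carries little weight by itself.

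**Figure D3:**
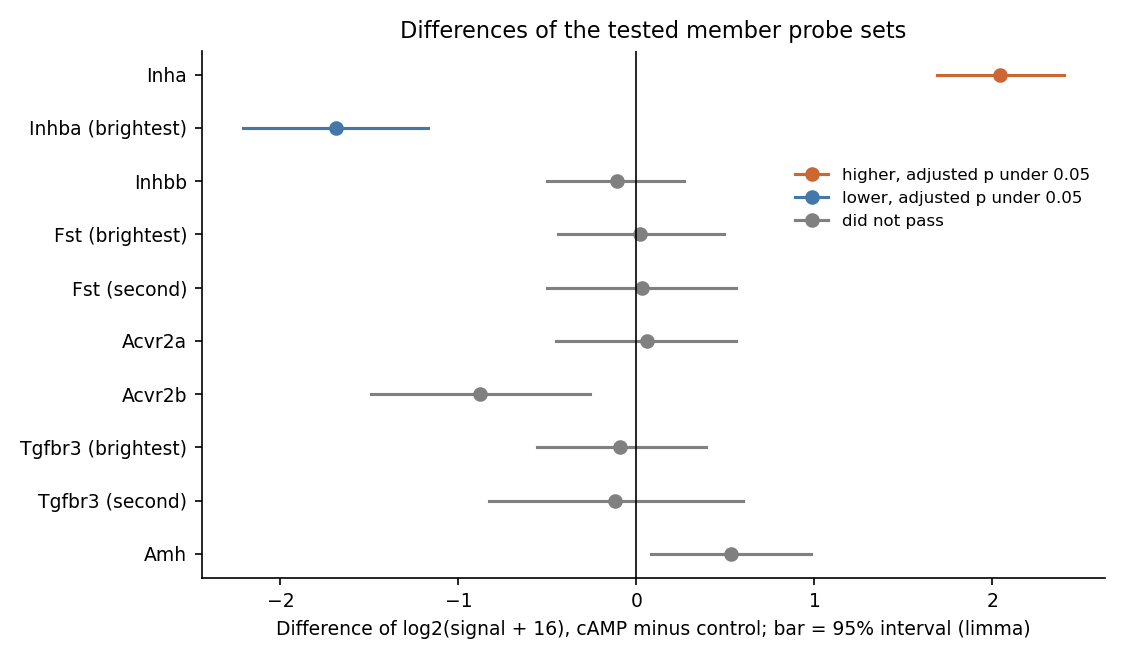
Difference of log2(signal + 16), cAMP minus control, for the 10 tested member probe sets, with the 95% interval from limma (2 arrays per group). Inha (2.04) is the only one called higher and Inhba (-1.69) the only one called lower; the intervals of Acvr2b (-1.49 to -0.26) and Amh (0.08 to 0.98) leave out 0 but their adjusted p did not pass.

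The genes whose profile over the 4 arrays lay nearest to that of a called member, by Euclidean distance between log2 profiles centred on their own mean, were found among all tested named genes. For Inha these were Etnk1 (distance 0.08), Gsap (0.10) and Sik1 (0.19), which rose by 2.09, 2.07 and 1.96. For Inhba they were Cyb561a3 (0.09), Cst8 (0.12) and Stxbp6 (0.13), with differences of -1.71, -1.64 and -1.60. With 4 arrays in 2 groups such likeness is mostly a like size of difference.

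Further genes of the pathway were read from 5 lists holding 92 genes. Of these, 76 were on the array and 52 were tested. In all 3 rose, 6 fell and 43 did not pass, 17.3% called against the 15.4% of all named genes tested. By list the called share was 16.7% (receptors and coreceptors), 12.5% (SMADs and brakes), 12.5% (further ligands), 20% (antagonists and processing) and 25% (regulators). With 6 to 16 genes tested per list, nothing is read from the differences between these shares and the 15.4%. The median log2 difference of the 52 was -0.02, against -0.03 over all named genes tested. Leaving out cAMP replicate 1 left 1 of the 3 (Htra1) and 1 of the 6 (Bambi), leaving out cAMP replicate 2 left 3 of the 6 (Bambi, Igsf1 and Zfpm2), and without control replicate 1 there were 8 higher and 8 lower. Without control replicate 2 there were 5 higher and 8 lower.

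Of the 6 tested further receptors and coreceptors, 1 fell and 5 did not pass, with a median of -0.18. The 1 was Igsf1, a membrane glycoprotein once proposed to bind inhibin, with 291.3 and 296.9 on the controls, and 82.7 and 121.7 with cAMP (-1.41 ± 0.20, adjusted p = 0.00441, limma). Its other tested probe set had 170.8 and 146.0 without and 54.6 and 99.1 with cAMP and just missed the threshold (-0.95 ± 0.26, adjusted p = 0.0513). The call on the brightest was lost without cAMP replicate 1 (adjusted p = 0.0528). Amhr2, the type II receptor of AMH, had 177.5 and 201.8 without and 211.2 and 238.8 with cAMP, a difference of 0.23 ± 0.16 that did not pass (adjusted p = 0.415). Acvr1 (-0.08 ± 0.16) and Bmpr1a (-0.53 ± 0.17), type I receptors that AMH and bone morphogenetic proteins use, did not pass either.

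Of 16 tested SMADs and feedback brakes, 2 fell and 14 did not pass, with a median of -0.10. Bambi, a decoy receptor without a kinase domain that dampens signalling, fell from 614.1 and 516.6 to 211.9 and 197.7 (-1.39 ± 0.15, adjusted p = 0.00154, limma), and kept its call with any 1 array left out. Smad4, the partner shared by all receptor-driven SMADs, fell from 821.7 and 806.4 to 509.2 and 490.6 on its brightest probe set (-0.69 ± 0.13, adjusted p = 0.0133). The other probe set of Smad4 had 173.2 and 109.2 without and 150.4 and 165.1 with cAMP (0.17 ± 0.23, adjusted p = 0.667), so the probe sets of this gene disagree. The call of Smad4 was also lost without cAMP replicate 1 (adjusted p = 0.15) and without cAMP replicate 2 (0.166). The activin-driven Smad2 (0.12 ± 0.16) and Smad3 (-0.50 ± 0.15, adjusted p = 0.0775) and the inhibitory Smad7 (-0.04 ± 0.20) did not pass.

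Among 8 tested further ligands, 1 fell and 7 did not pass, with a median of 0.37. The 1 was Bmp3, a bone morphogenetic protein that opposes others of its family. Its signal was 61.4 and 46.2 on the controls, and 14.0 and 18.9 with cAMP (-1.10 ± 0.22, adjusted p = 0.0182, limma). The cAMP values were near background and their mean was below the filter, so Bmp3 passed the filter only through the controls. It was lost without a filter on dim probe sets (adjusted p = 0.0666), without cAMP replicate 1 (0.171) and without cAMP replicate 2 (0.0955). The further inhibin beta subunit genes were dim: Inhbe had between 16.3 and 24.0 on the 4 arrays, and Inhbc was at or below background on each.

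Of 10 tested secreted antagonists and processing enzymes, 2 rose and 8 did not pass, with a median of 0.22. Htra1, a secreted serine protease that binds members of this ligand family, rose from 173.2 and 112.5 to 1160.7 and 1096.4 (2.88 ± 0.20, adjusted p = 0.00024, limma), a larger difference than that of any of the 8 members. Pcsk5, a convertase that cuts hormone precursors, rose from 18.4 and 18.7 to 90.8 and 74.4 (1.51 ± 0.20, adjusted p = 0.00353). A further Pcsk5 probe set was too dim to be tested. It was at background without cAMP and at 46.8 and 33.2 with it, at least 2.78-fold higher. Another untested Pcsk5 probe set was at background on every array, at 2.7 and 1.8 without and 2.2 and 1.3 with cAMP. The call of Pcsk5 was lost without cAMP replicate 1 (adjusted p = 0.0547). Furin, the convertase that cuts many of these precursors, did not pass (0.20 ± 0.18). Fstl3, a relative of follistatin that also binds activin, had 336.1 and 186.1 without and 171.1 and 118.2 with cAMP, a difference of -0.75 ± 0.29 that did not pass (adjusted p = 0.139) but did without control replicate 2.

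Of 12 tested regulators of Amh and the inhibin genes, 1 rose, 2 fell and 9 did not pass, with a median of 0.00. Crem, which encodes activators and repressors that bind CREs, rose from 242.1 and 140.3 to 656.4 and 601.4 (1.68 ± 0.24, adjusted p = 0.00429, limma). Its 4 other tested probe sets rose too, by 0.96 to 2.43, and the brightest lost its call without cAMP replicate 1 (adjusted p = 0.0502). Gata4, a zinc finger factor that binds GATA motifs, had 1290.4 and 1232.8 without and 647.6 and 649.0 with cAMP and fell by 0.94 on its brightest probe set (adjusted p = 0.00297). Its other probe set, with 54.6 and 33.6 against 43.2 and 53.8, did not pass (0.12 ± 0.24), and the call was lost without cAMP replicate 1 (adjusted p = 0.0601) and without cAMP replicate 2 (0.0555). Zfpm2, also called FOG2, a cofactor that binds GATA4, fell from 131.3 and 126.8 to 31.8 and 51.5 (-1.35 ± 0.22, adjusted p = 0.00799), and lost its call without cAMP replicate 1 (0.0941). Other probe sets of Zfpm2 were too dim to be tested and give no second measurement of the decrease. The brighter of them had 13.8 and 14.8 without and 22.2 and 15.1 with cAMP, while the dimmer was at background on every array. Nr5a1 (-0.28 ± 0.15), Wt1 (0.21 ± 0.13) and Creb1 (-0.46 ± 0.23) did not pass.

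**Figure D4:**
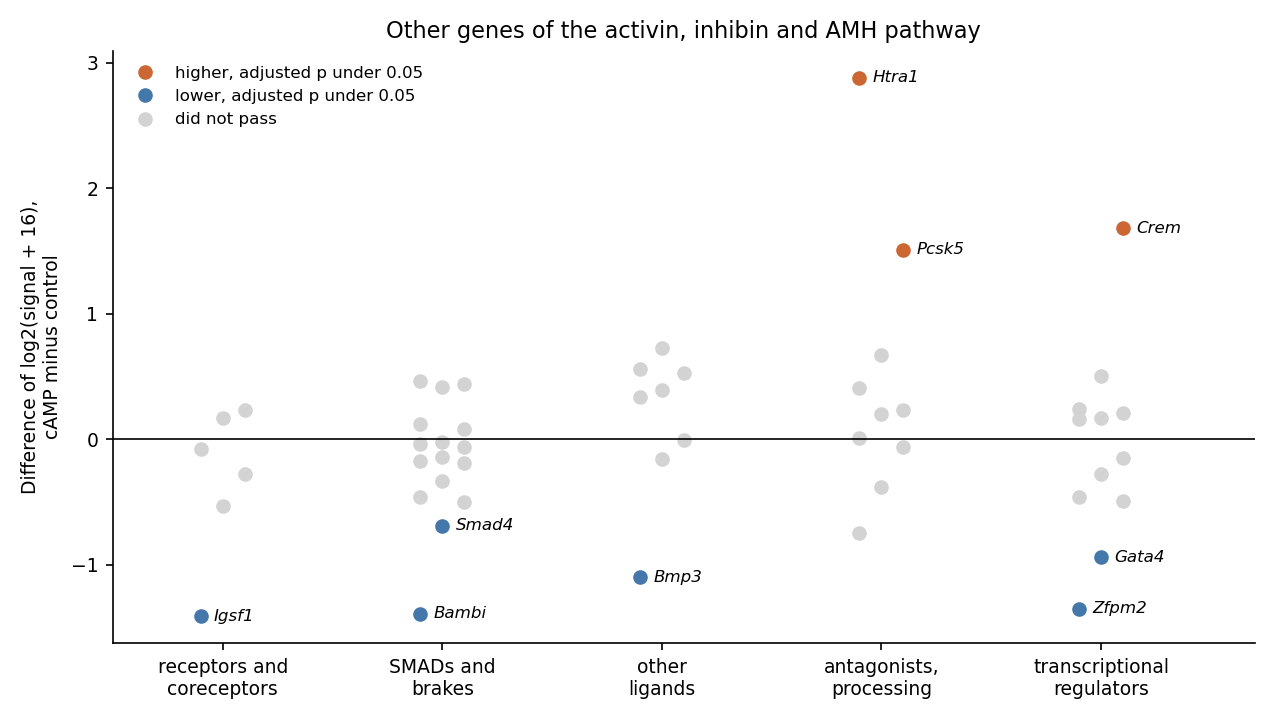
Difference of log2(signal + 16), cAMP minus control, for the 52 tested genes of 5 pathway lists, each point 1 gene on its brightest probe set. Htra1 (2.88), Crem (1.68) and Pcsk5 (1.51) are called higher, and Igsf1, Bambi, Zfpm2, Bmp3, Gata4 and Smad4 are called lower. The other 43 did not pass and lie between -0.75 (Fstl3) and 0.73 (Bmp2).

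Markers of cell types other than myoid cells were compared as well. The summed signal of 6 Leydig cell markers was 95 and 90 on the controls, and 90 and 74 with cAMP, with Cyp17a1, Hsd3b1 and Lhcgr below background on each. Cyp11a1, the 1 tested, did not pass (0.12 ± 0.20, adjusted p = 0.731, limma). That of 7 germ cell markers was 3708 and 3333 without and 3461 and 2597 with cAMP, most of it Sycp3, and the 4 tested had adjusted p between 0.281 and 0.925. Of 8 macrophage markers, 2 were tested and did not pass, with sums of 106 and 165 against 105 and 139. Single markers went opposite ways behind these sums: Lyz2 had 47.3 and 108.6 without and 26.4 and 27.6 with cAMP (-1.05 ± 0.32, adjusted p = 0.0751, limma), and Cd68, below the filter, had 4.1 and 6.2 without and 28.1 and 45.2 with cAMP. Of 5 endothelial markers, only 2 were tested and 1 was called, 50% against 15.4% of all named genes tested. Kdr fell, from 187.3 and 130.8 to 57.5 and 58.1, a call lost without cAMP replicate 1 and without cAMP replicate 2. Tek had 24.9 and 17.4 without and 25.2 and 17.1 with cAMP and did not pass (adjusted p = 0.997, limma). Pecam1, Vwf and Emcn were at or below background on each array.

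**Figure D5:**
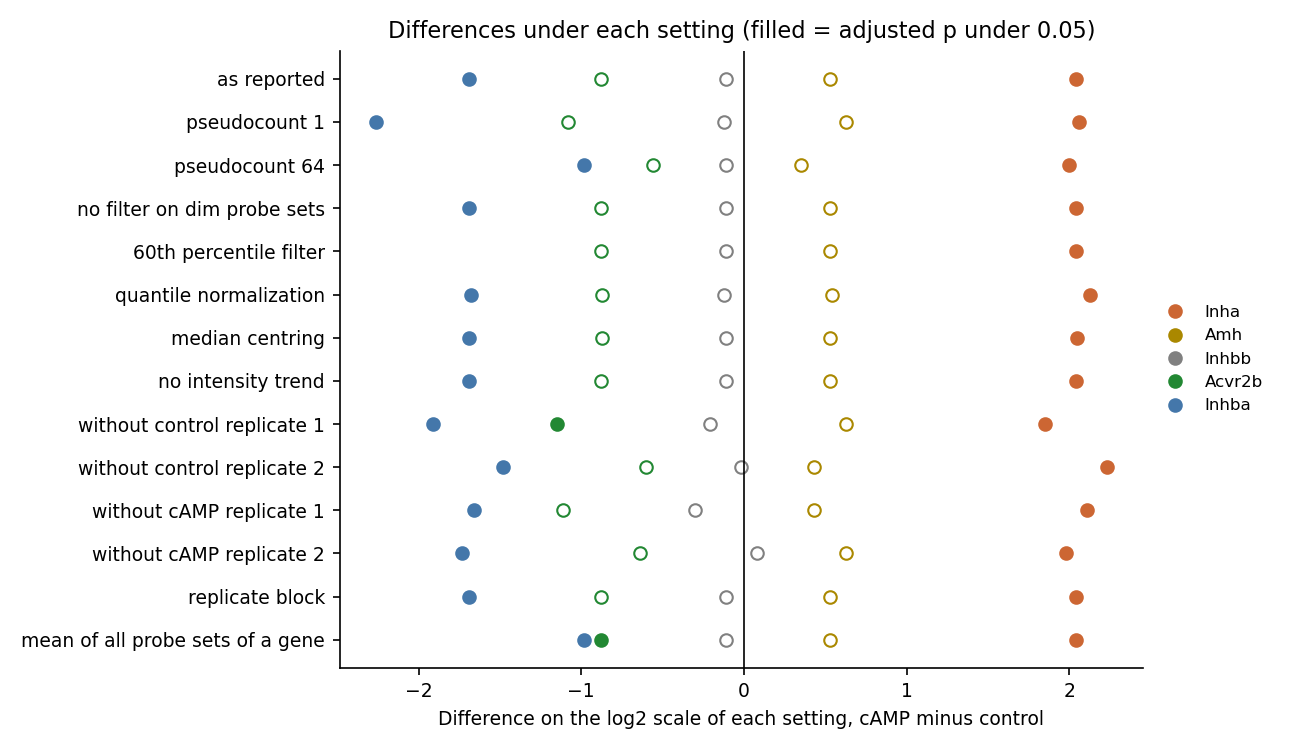
Difference between cAMP and control for 5 members as reported and under each alternative setting, filled where the adjusted p lay below 0.05. Inha and Inhba are filled wherever they were tested, Acvr2b in 2 alternatives only, and Amh and Inhbb in none; Inhba has no point under the 60th percentile filter, where it was too dim to be tested.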

How the data were processed

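The deposited values are linear intensities, 1 per probe set and array, for which the submitters' processing notes name GCOS and MAS5. No version, setting or genome build is given in the labels. With 2% of the values trimmed at either end, the mean signal of each of the 4 arrays was 125, so the arrays shared a common scaling. Probe sets were named from the platform annotation (20832 with 1 symbol, 436 with several, 9831 with none), and 20764 of the first were matched to RefSeq to update symbols. From the intensities log2(signal + 16) was computed. Non-control probe sets with a mean at or above the 40th percentile (5.10) were tested, 18625 in all, with limma 3.58.1 in R 4.3.3 (lmFit, eBayes with intensity trend, two-sided, adjusted over all of them). The fit was tested on simulated data. A gene is represented by its brightest probe set, and signal levels of different genes are not on a common scale. The summed marker signals and the within-array ratios combine such levels. Bright probe sets weigh most in the sums, and only the change of a ratio is read. The number of arrays limits the precision. Where both arrays of a group lay at background, a change is at least the ratio of geometric means with each value raised to 14.2. Named genes are all members, the called genes of each list and the 3 nearest profiles to each of the 2 called members; other list genes were named for their role after their values were seen. The members and lists were chosen with earlier results of these data known. Alternatives were pseudocounts of 1 and 64, no filter and a 60th percentile filter, quantile normalization, median centring, no trend, each array left out, the replicate number as a block, and the mean of a gene's probe sets.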

Additional observations from a re-analysis of the deposited data

How the results depend on the processing

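Inha kept its direction and its call in all 13 alternatives (difference 1.85 to 2.23, adjusted p by limma at most 0.00637), and Inhba in all 12 in which it was tested (-2.26 to -0.98, adjusted p at most 0.0426). Without the filter on dim probe sets 873 probe sets were higher and 725 lower, against 1358 and 1191. With the 60th percentile filter 0 members were lower, because Inhba was no longer tested. With the mean of all probe sets of a gene 2 members were lower, Inhba and Acvr2b. Acvr2b has 1 probe set, so its difference stayed at -0.88. Only its standard error (0.23 against 0.26) and the adjustment over all tested features changed, and this is no second measurement. With 1 array left out, where the lone array is assumed to vary like the other group, the members counted 1 higher throughout and 1 to 2 lower, the pathway genes 1 to 8 higher and 1 to 8 lower, and all probe sets 396 to 2467 higher and 314 to 2381 lower; the lowest counts of all probe sets came without cAMP replicate 1 and the highest without control replicate 1. The labels give both groups the same replicate numbers. With the replicate block 1 member was higher and 1 lower, 3 pathway genes were higher and 7 lower (Fstl3 was added), and 1540 probe sets were higher and 1495 lower. Same-numbered arrays deviated together only weakly (r = 0.163 across probe sets), and nothing shows that the numbers pair the samples. Quantile normalization and median centring moved the median difference by 0.010 and 0.004. Tgfbr3 has signals near background, where a decrease can hardly be seen. Fst and Acvr2a were dim but above background on every array, which leaves limited room to see a decrease.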
